A study of Caenorhabditis elegans with 2 samples.

Results

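Histone genes of Caenorhabditis elegans were examined for binding of SNPC-4, a protein that binds DNA as one member of SNAPc, the complex that activates small nuclear RNA (snRNA) genes. The members were the protein-coding genes of the WBcel235 annotation (the ce11 assembly) with symbols beginning his-, which gave 72 of 19973 protein-coding genes and of 46890 nuclear genes in all. By their RefSeq product names, 17 encode H2A, 16 H2B, 15 H3, 16 H4 and 5 the H3.3 type of H3. The gene his-24 encodes a linker histone H1, and his-39 and his-73 encode histone-domain proteins that were given no class. Chromatin bound to SNPC-4 tagged with eGFP was immunoprecipitated and sequenced (ChIP-seq) in 1 group of 2 biological replicates. Every sample was of whole young adults of strain OP179, which carries the allele unc-119(ed3) on chromosome III and the integrated transgene wgIs179 with the tagged snpc-4. The authors called peaks over a control, whose library was not analysed here. Whole animals were used, so binding in few cells and weak binding in many cells cannot be told apart.

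Core histones H2A, H2B, H3 and H4 form the protein spool around which nuclear DNA is wound, and linker histone H1 binds where DNA enters and leaves it. Most core histone genes are transcribed by RNA polymerase II while DNA is replicated, and in C. elegans they lie in multi-copy clusters, largely as pairs that diverge from a shared promoter. H3.3 is made outside replication as well and replaces H3 in transcribed chromatin. SNAPc is known for recruiting the polymerases that transcribe snRNA genes, and in C. elegans SNPC-4 is also known at 21U-RNA genes.

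A stretch of 11 bases, CTGCGGGGACA (TGTCCCCGCAG on the other strand), was the most widely shared word of its length around the SNPC-4 summits of histone promoters. It is shown first because the promoters with and without a peak are described by it below. The word was found by listing every 11-mer within 100 bp of the 10 pooled summits beside histone genes. It stood in 6 of those 10 windows, together with 1 overlapping 11-mer in as many windows, and the next word stood in 5. Since the peaks themselves chose the word, its presence at them is a description. The first 5 sequences below come from promoters with the exact word and a peak. The next comes from a promoter with 1 differing letter and a weak peak, and the last 3 from promoters with no peak in any list. All are RefSeq WBcel235 sequence in the direction in which the word reads, with 40 bases before it and 50 after it. Capitals mark the word, and a lower-case letter inside it marks a letter that differs.
his-37, chrV:9546958-9547058, minus strand: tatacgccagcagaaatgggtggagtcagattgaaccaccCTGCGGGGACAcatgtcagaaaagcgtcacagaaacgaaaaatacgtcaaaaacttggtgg
his-60/his-59, chrIV:7488055-7488155, plus strand: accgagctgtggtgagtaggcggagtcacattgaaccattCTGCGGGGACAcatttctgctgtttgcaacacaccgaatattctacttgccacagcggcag
his-61/his-62, chrIV:7486268-7486368, plus strand: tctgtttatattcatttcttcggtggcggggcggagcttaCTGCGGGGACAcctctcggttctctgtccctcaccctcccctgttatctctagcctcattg
his-4/his-3, chrV:16040577-16040677, plus strand: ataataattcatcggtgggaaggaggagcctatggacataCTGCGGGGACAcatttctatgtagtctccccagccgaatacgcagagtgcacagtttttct
his-24, chrX:14489986-14490086, minus strand: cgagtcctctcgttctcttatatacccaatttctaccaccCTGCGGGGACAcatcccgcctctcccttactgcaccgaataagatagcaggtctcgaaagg
his-63/his-64, chrIV:11406953-11407053, minus strand: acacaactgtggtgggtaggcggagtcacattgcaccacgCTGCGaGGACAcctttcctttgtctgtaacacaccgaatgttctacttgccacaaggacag
his-31/his-32, chrIV:8334134-8334234, minus strand: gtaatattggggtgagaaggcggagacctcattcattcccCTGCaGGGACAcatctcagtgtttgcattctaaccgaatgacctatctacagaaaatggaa
his-2/his-1, chrV:16042366-16042466, minus strand: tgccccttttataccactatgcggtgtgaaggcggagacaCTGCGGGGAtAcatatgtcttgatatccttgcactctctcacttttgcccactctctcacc
his-6/his-5, chrV:8535060-8535160, minus strand: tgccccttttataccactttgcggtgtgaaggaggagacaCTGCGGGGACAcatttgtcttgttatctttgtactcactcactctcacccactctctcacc

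Of the 72 histone genes, 8 (11.1%) had an optimal peak, that is, a summit of the authors' reproducible list within 300 bp of the annotated 5' end, against 4.32% of all protein-coding genes. Because divergent genes share a promoter, the 8 genes lay beside only 5 distinct peaks. The genes were his-37, the pairs his-67/his-68, his-60/his-59 and his-61/his-62, and the H3.3 gene his-72. In the pooled relaxed list, which holds 30000 candidate peaks and includes background, 16 histone genes (22.2%) lay beside 10 peaks, against 26.5% of protein-coding genes. Replicate 1 alone gave 16 histone genes (22.2%, background 20.1%) and replicate 2 alone gave 16 (22.2%, background 27.5%). All 3 relaxed lists held a peak at 15 of the genes, and 55 genes had a peak in no list. The histone share was thus above the protein-coding share among optimal peaks and below it in the pooled relaxed list. With 1 group no test between conditions could be made, and these shares are descriptions.

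Histone genes differed in how much of their upstream sequence occurs elsewhere in the genome. For each gene, all 36-base words (36-mers) in the 200 bp upstream of the 5' end were counted as unique when they occurred at no other place of the genome on either strand. All of them were unique at 24 histone genes (33.3%), against 90.8% of protein-coding genes. None was unique at 37 histone genes (51.4%), against 1.65% of protein-coding genes, and the other 11 were mixed. Every optimal peak of a histone gene lay at a gene with a fully unique upstream sequence, which gave 8 of 24 (33.3%) against 4.64% of protein-coding genes of the same kind. The 8 genes lay beside 5 distinct peaks, and 16 of the 24 genes were in divergent pairs. Of divergent protein-coding pairs with fully unique upstream sequence, 18.5% had an optimal peak near both genes. In the pooled relaxed list and in each replicate the count was 14 of 24 (58.3%), against 28.1% pooled, 21.4% in replicate 1 and 29.2% in replicate 2. At the 37 fully repeated genes there was no peak in any list (0%). Among the 330 protein-coding genes of the same kind, the 37 included, the optimal list had none (0%) and each relaxed list had 1 (0.303%). Of the 11 mixed genes, none had an optimal peak (0%) and 2, his-63 and his-64, had a peak in each relaxed list (18.2%). How the authors' alignment treated reads that fit several places is not given in the sources used here. Whether repeats bear on the missing peaks was not tested.

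**Figure D1:**
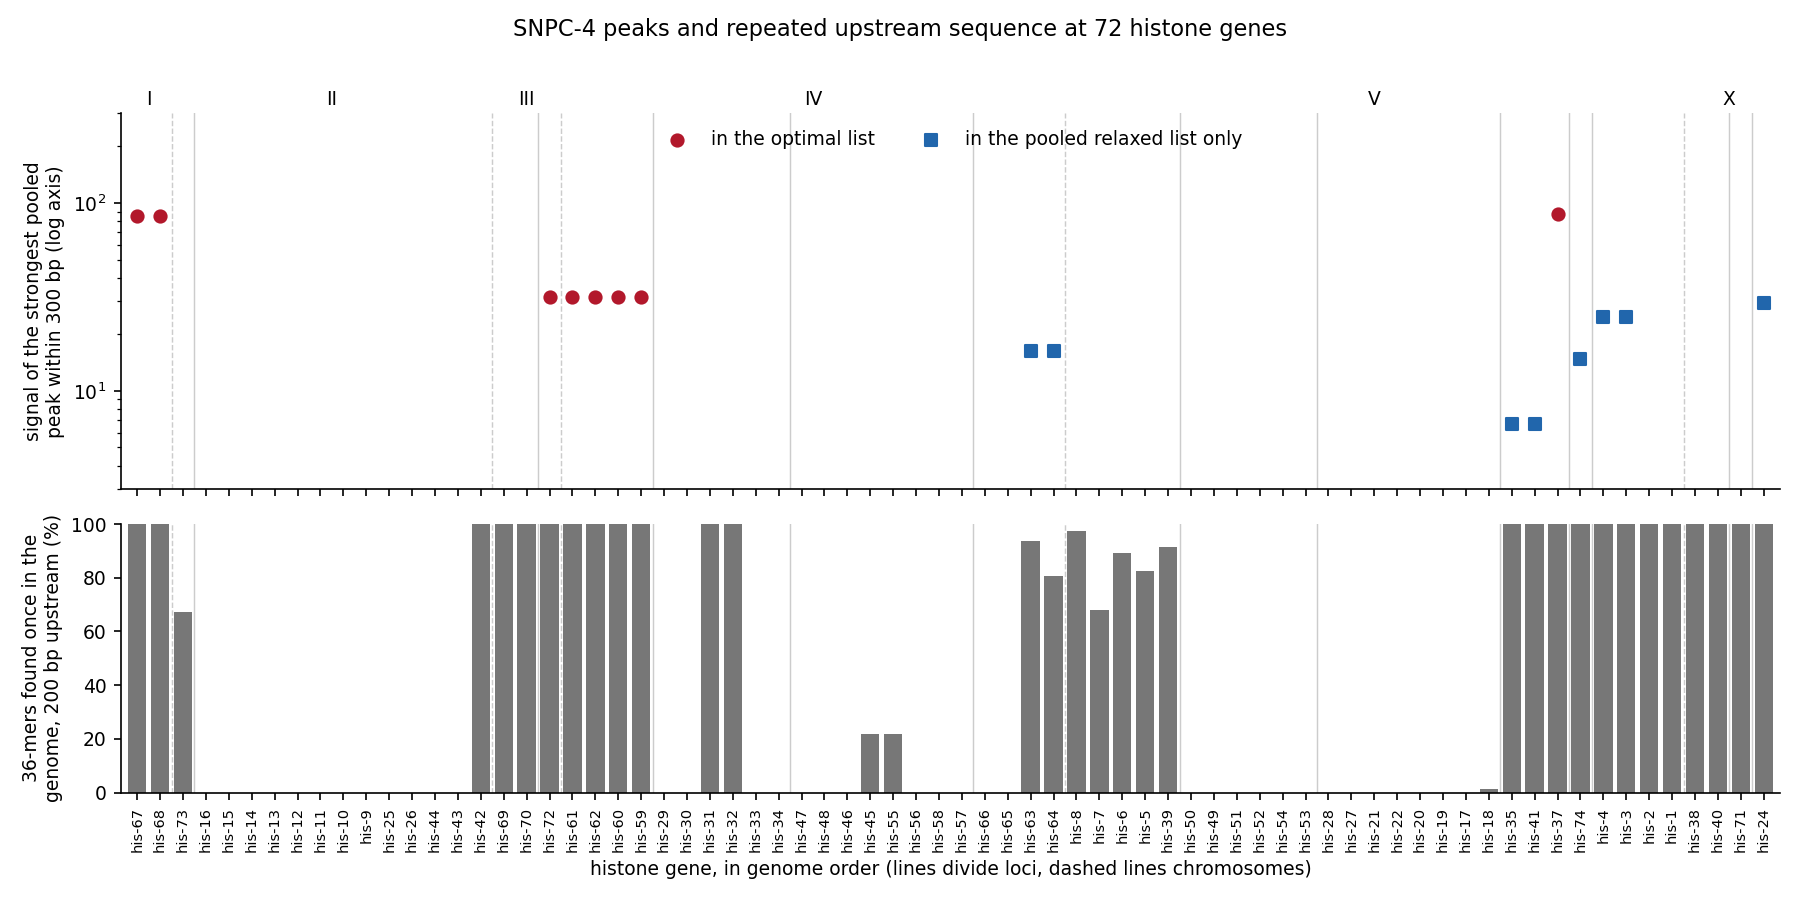
Each of the 72 histone genes in genome order, with the authors' signal of its strongest pooled peak on a log axis (top) and the percent of its upstream 36-mers found at 1 place in the genome (bottom). Peaks stand above genes with unique or mostly unique upstream sequence, and the long runs of genes with 0% unique 36-mers have no point above them.

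The strongest histone peak lay upstream of his-37, an H4 gene with introns on chromosome V. Its signal, the authors' per-peak enrichment value, was 87.4 in the pooled reads, 36.3 in replicate 1 and 50.4 in replicate 2. The peak ranked 264 of 30000 pooled peaks, 231 of 20730 in replicate 1 and 326 of 30000 in replicate 2, so it was high in all 3 lists. Signals of different lists are on different scales, and ranks are the fairer comparison. The peak spanned chrV:9546926-9547073, only 148 bp against a median of 324 bp in the optimal list, and the summit stood 96 bp before the 5' end. The sequence below gives the 200 bases upstream of his-37 on the plus strand (RefSeq WBcel235, chrV:9546905-9547104), with the shared word and the word TATAAA in capitals. The pooled summit fell 4 bp from the middle of the shared word.
his-37 upstream: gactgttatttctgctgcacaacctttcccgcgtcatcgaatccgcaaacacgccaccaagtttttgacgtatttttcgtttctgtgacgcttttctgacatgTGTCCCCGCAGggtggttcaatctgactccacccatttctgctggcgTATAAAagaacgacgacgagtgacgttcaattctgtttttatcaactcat

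The peak between his-67, an H4 gene, and his-68, an H2A gene, was nearly as strong. Its pooled signal was 84.8 (rank 275), with 28.3 (rank 338) in replicate 1 and 56.3 (rank 277) in replicate 2. The summit lay 190 bp upstream of his-67 and 179 bp upstream of his-68, near the middle of the 369 bp between their 5' ends, and the peak spanned chrI:9988926-9989087. It is the only H2A-H4 pair among the histone genes, and it lies on chromosome I away from the clusters. These peaks of his-37 and his-67/his-68 stood in the strongest 14.8% and 15.4% of the optimal list.

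On chromosome IV, a locus of 4 genes had an optimal peak in both of its divergent promoters. The H4-H3 pair his-60/his-59 had a pooled signal of 31.7 (rank 1705), with 15.4 (rank 1299) in replicate 1 and 26.2 (rank 1065) in replicate 2. The H2A-H2B pair his-61/his-62 had a pooled signal of 31.7 (rank 1706), with 11.8 (rank 2259) in replicate 1 and 20.6 (rank 1786) in replicate 2. The pairs thus held neighbouring ranks, and both peaks were present in each replicate. The peaks spanned chrIV:7487924-7488247 and chrIV:7486176-7486499, with the summits between the diverging genes. They stood near the end of the optimal list, whose signals ran from 31.1 to 1801 with a median of 42.6. The locus spans chrIV:7485834-7488659, and 83.4% of its 36-mers were unique.

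The fifth optimal peak lay 60 bp upstream of his-72, an H3.3 gene on chromosome III, at chrIII:12368948-12369271, and rested largely on 1 library. Its pooled signal was 31.6 (rank 1719 of the 1781 optimal peaks). Replicate 2 gave 25.9 (rank 1089), whereas replicate 1 gave 2.26 (rank 18978 of 20730), near the lowest signal of that list, 2.00. The 2 replicates thus differed widely at this peak. The median signal of the 5 histone peaks in the optimal list was 31.7, against 44.6 for the 687 optimal peaks beside protein-coding genes.

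**Figure D2:**
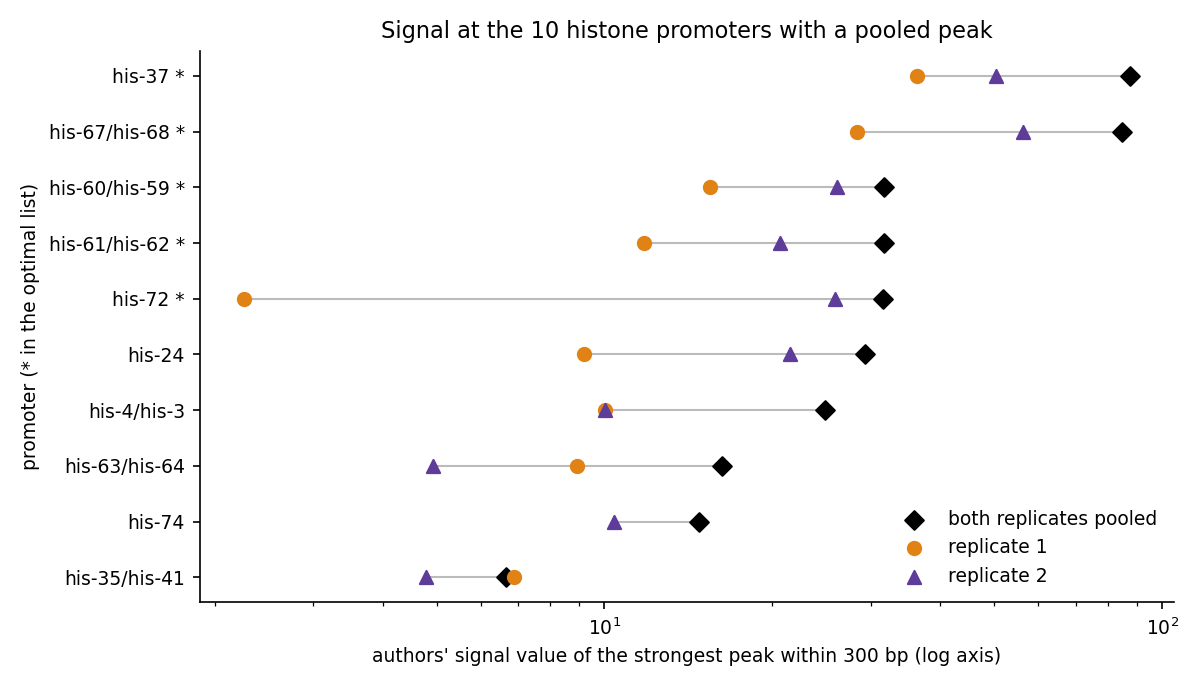
Signal of the strongest peak within 300 bp at the 10 histone promoters with a pooled peak, on a log axis, for the pooled reads and each replicate; an asterisk marks the optimal list. The points of his-37 and his-67/his-68 lie to the right in every list, his-72 has its replicate 1 point at 2.26, and his-74 has no replicate 1 point.

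A further 5 histone promoters had a peak in the pooled relaxed list without reaching the optimal list. The strongest was at his-24, the linker histone gene, at chrX:14489895-14490218 with a pooled signal of 29.4 (rank 2014). Replicate 1 gave 9.17 (rank 3512) and replicate 2 gave 21.5 (rank 1633). The summit stood 37 bp upstream of the 5' end, the nearest of all, and in replicate 1 it lay 34 bp downstream. With a pooled signal just under the optimal list's lowest of 31.1, his-24 was the histone gene closest to that list.

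The H2B-H2A pair his-4/his-3 followed at chrV:16040528-16040851 with a pooled signal of 24.8 (rank 2817) with 10.002 (rank 3028) in replicate 1 and 10.04 (rank 6742) in replicate 2. The H3-H4 pair his-63/his-64 had, at chrIV:11406790-11407113, a pooled signal of 16.3 (rank 5695), with 8.94 (rank 3661) in replicate 1 and 4.92 (rank 17176) in replicate 2. The peak of his-4/his-3 thus stood in the strongest 9.39% of the pooled list and that of his-63/his-64 in the strongest 19%. The his-63/his-64 peak ranked higher in replicate 1 (strongest 17.7%) than in replicate 2 (57.3%). At his-74, an H3.3-like gene, the pooled signal was 14.8 (rank 6560) and the replicate 2 signal 10.4 (rank 6395), with no peak in replicate 1 and the summit 293 bp upstream, near the 300 bp limit. The weakest was the H2A-H2B pair his-35/his-41 at chrV:9545326-9545649, with 6.67 pooled (rank 16625), 6.89 in replicate 1 (rank 5410) and 4.78 in replicate 2 (rank 17753). Its replicate 1 summit lay 150 bp from the pooled summit, farther than at any other of the 9 promoters with a peak in that replicate. Of the other H3.3 genes, his-69 had only a replicate 1 peak (signal 2.95, rank 15100, 164 bp inside the gene), and his-70 and his-71 had none.

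At all 16 histone genes with a pooled peak the summit lay upstream of the 5' end, by 37 to 293 bp with a median of 142 bp. These are only 10 distinct summits. The summits of 6 divergent pairs are counted for both genes, and between diverging 5' ends a summit is upstream of both by layout. Among all protein-coding genes with a pooled peak, 71.7% of summits lay upstream, and the median lay 101 bp upstream. For 64 of the 72 histone genes the annotated 5' end is the start of the coding sequence, so distances to the true start of transcription are not known from the annotation. In the pooled list the deposited -log10 q value was 3.79 at his-37, his-67, his-60, his-61, his-72, his-24 and his-4, 3.36 at his-63, 3.27 at his-74 and 0.933 at his-35. The peaks at 3.79 hold an identical value for pooled signals from 87.4 down to 24.8, so it does not rank them. At his-72 it was 3.73 in replicate 2 and 1.21 in replicate 1.

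Most histone genes, 62 of 72, formed 31 divergent pairs with 5' ends 228 to 369 bp apart (median 259 bp). An optimal summit lay within 300 bp of both genes in 3 pairs (9.68%), against 16.6% of 917 divergent protein-coding pairs no more than 500 bp apart. Pairs with a summit near both genes numbered 6 in each relaxed list, or 19.4%, against 44.2% pooled, 37.1% in replicate 1 and 43.3% in replicate 2. Narrowing the background to the 648 protein-coding pairs no farther apart than histone pairs gave 16.8% optimal and 48.5% pooled. Over all pairs, the histone shares were thus the lower ones in every list.

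The order turned when pairs with any repeated upstream 36-mer were left out. Of the 8 remaining histone pairs, 3 had an optimal peak (37.5%), against 18.5% of 813 protein-coding pairs and 18.8% of the 569 pairs that were also no farther apart than histone pairs. In the relaxed lists 5 of the 8 had a peak (62.5%), against 48.2% pooled, 40.8% in replicate 1 and 47.4% in replicate 2, and 53.1% of the 569 pairs in the pooled list. These shares rest on 8 pairs, and no test was made of the difference. By type, all 3 unique H2A-H2B pairs had a pooled peak, 1 of them optimal. Of the 4 unique H3-H4 pairs, only his-60/his-59 had one. The H3-H4 pairs with unique sequence and no peak in any list were his-31/his-32, his-2/his-1 and his-38/his-40.

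By class, an optimal peak lay at 3 of 16 H4 genes, 2 of 17 H2A, 1 of 16 H2B, 1 of 15 H3 and 1 of 5 H3.3 genes, and at no H1 gene. In the pooled list the counts were 4 of 16 H4, 4 of 17 H2A, 3 of 16 H2B, 2 of 15 H3, 2 of 5 H3.3 and the H1 gene. The shares over all protein-coding genes were 4.32% optimal and 26.5% pooled. Divergent partners of different classes share peaks, so the class counts are not separate, and no class was tested against that background. The classes differ in repeats: all 5 H3.3 genes and his-24 had unique upstream sequence, against 4 of 17 H2A and 3 of 16 H2B genes. Of the 10 genes in no pair, 4 had a pooled peak. These were his-37, his-72, his-74 and his-24, all with introns. The unpaired gene his-71 also has introns and unique upstream sequence, and it had no peak in any list.

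The genes fell into 18 loci when genes less than 20 kb apart were joined, 13 of them with at least 2 genes. A gene with an optimal peak was found in 4 loci and one with a pooled peak in 8. Both genes of chromosome I, 4 of 22 genes on chromosome IV, 1 of 27 on V and 1 of 3 on III had an optimal peak, and none of the 14 on II or the 4 on X. The genes on I share 1 peak and the 4 on IV share 2 peaks. Pooled peaks were found at 2 genes on I, 1 on III, 6 on IV, 6 on V and 1 on X. Over all chromosomes, 4.32% of protein-coding genes had an optimal and 26.5% a pooled peak, and shares by chromosome were not computed. The largest cluster, 13 genes at chrII:13817760-13828697, had 7.3% unique 36-mers and no peak at any gene. Clusters of 6 and 8 genes at chrV:8847393-8854053 and chrV:8889488-8898539 had 0% and 1.1% unique 36-mers and no pooled peak in their span. Around the 37 fully repeated genes the nearest pooled summit lay 437 to 56178 bp away, with a median of 3064 bp against 1455 bp for protein-coding genes.

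Peaks were also missing from clusters with much unique sequence. The locus of his-8, his-7, his-6, his-5 and his-39 at chrV:8532715-8536716 had 61.4% unique 36-mers and no peak in any of the 4 lists. At chrV:16040144-16042831 the pair his-4/his-3 had a peak and the pair his-2/his-1 had none, although the upstream 36-mers of all 4 genes were unique. The pair his-31/his-32 on chromosome IV was unique too, and its nearest pooled summits lay 26207 and 25885 bp away. In all, 10 of the 24 unique genes had no pooled peak and 9 had no peak in any list. The part of the cluster in these differences was not tested.

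**Figure D3:**
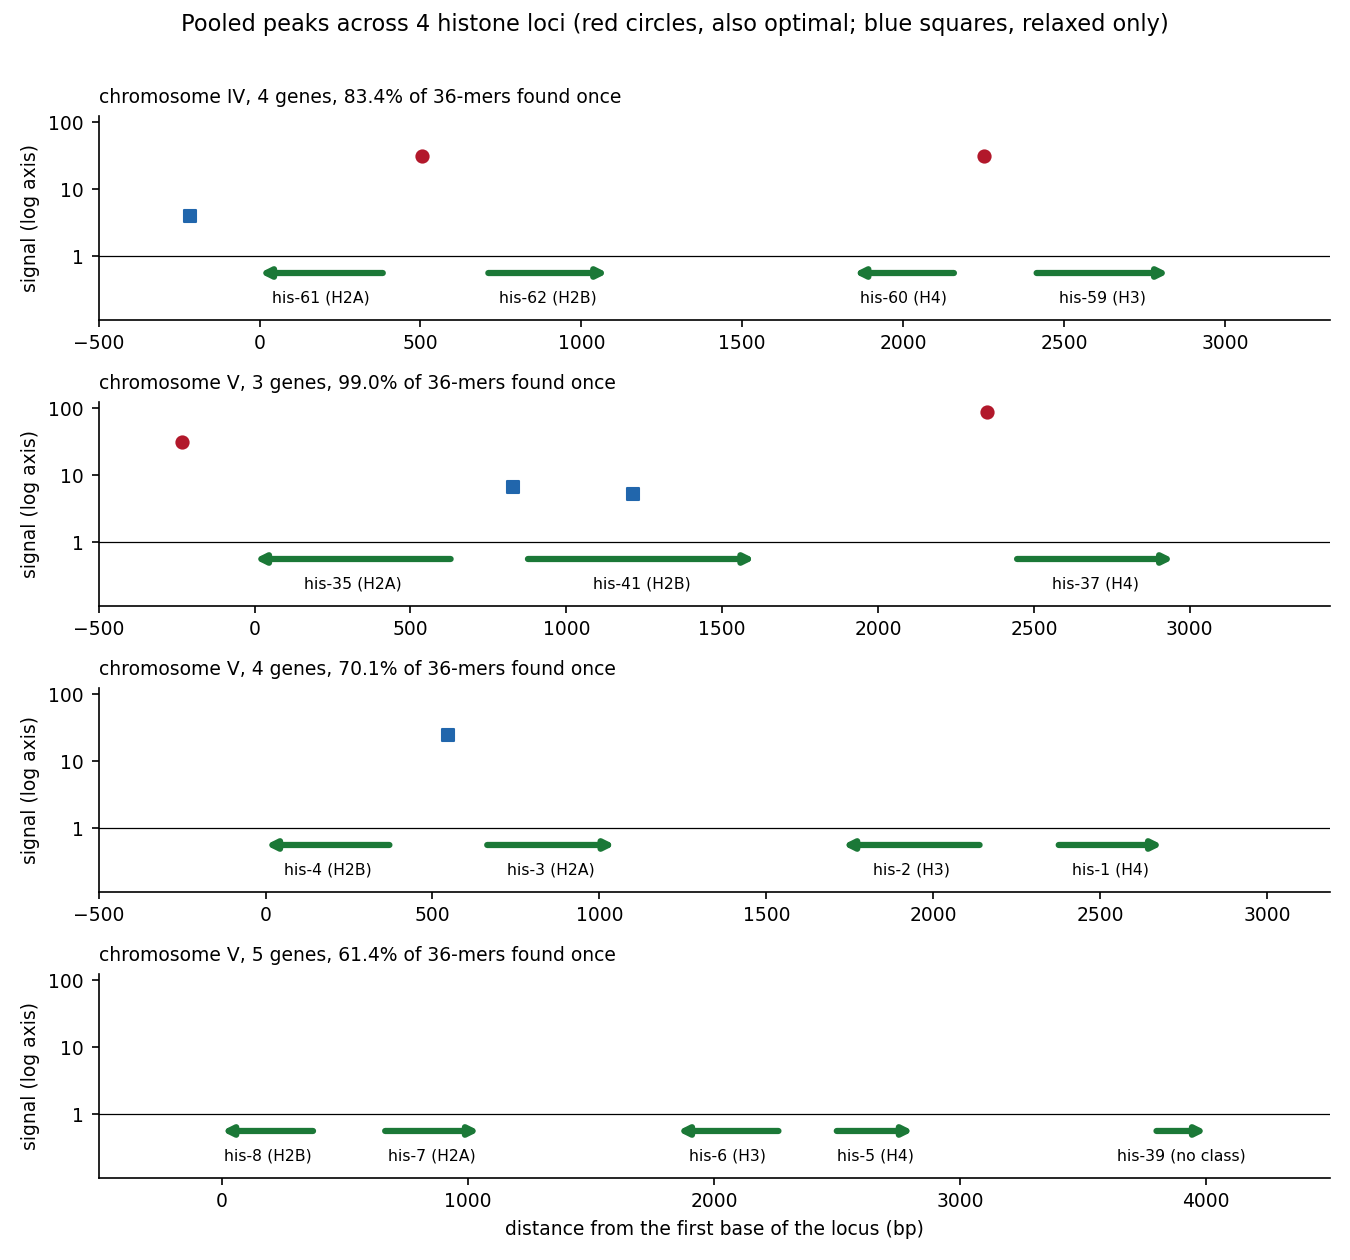
Pooled summits by distance along 4 histone loci (x, bp) and signal on a log axis (y), red circles for optimal peaks and blue squares for peaks of the relaxed list only, with genes as arrows. Both promoters of the chromosome IV locus carry an optimal peak, the promoter of his-4/his-3 but not that of his-2/his-1 carries a peak, and the locus of his-8 to his-39 has none.

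The exact shared word, CTGCGGGGACA, was searched on both strands in the 300 bp upstream of every gene. It was present at 24 histone genes (33.3%) and at 27 protein-coding genes in all (0.135%), so only 3 genes with it were not histone genes. None of those 3 had an optimal peak, and 2 had a pooled peak. With at most 1 differing letter it was present at 60 histone genes (83.3%) and 0.401% of protein-coding genes. The 12 histone genes without it were his-73, his-42, his-69, his-70, his-72, his-39, his-35, his-41, his-74, his-38, his-40 and his-71, among them all 5 H3.3 genes. Many histone promoters are near copies of each other, so genes with the word are not independent.

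Genes with unique upstream sequence were then divided by their match to the word. All 10 with the exact word had a pooled peak, and 7 had an optimal one. These 10 stand at the 6 promoters whose pooled summits chose the word, so their pooled peaks were built in. Optimal peaks are the strongest of the pooled peaks, so the optimal count is tied to that choice too. The 4 with 1 differing letter, the pairs his-2/his-1 and his-31/his-32, had no peak in any list. Of the 10 with 2 or more differing letters, 4 had a pooled peak (his-72, his-35, his-41 and his-74) and 1 an optimal one. Among all protein-coding genes with unique upstream sequence, 28.1% had a pooled and 4.64% an optimal peak. The exact word without a peak was found at 11 fully repeated genes and at 3 partly repeated ones. The latter included his-6 and his-5, where 89.1% and 82.4% of upstream 36-mers were unique. At his-63/his-64, partly repeated, the word had 1 differing letter and the peak was present in each relaxed list.

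The word lay close to the summits. In the 6 promoters the pooled summit stood 4 to 68 bp from its middle (median 20.5 bp). The replicate 1 summits stood 0 to 87 bp away (median 25 bp) and the replicate 2 summits 5 to 138 bp away (median 34 bp). The farthest were his-24 in replicate 1 and his-4/his-3 in replicate 2. The promoter of his-67/his-68 held 2 exact copies and 1 with a differing letter, and that of his-61/his-62 held 1 copy of each kind. Since the word was chosen within 100 bp of pooled summits, a short distance to them was built in.

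**Figure D4:**
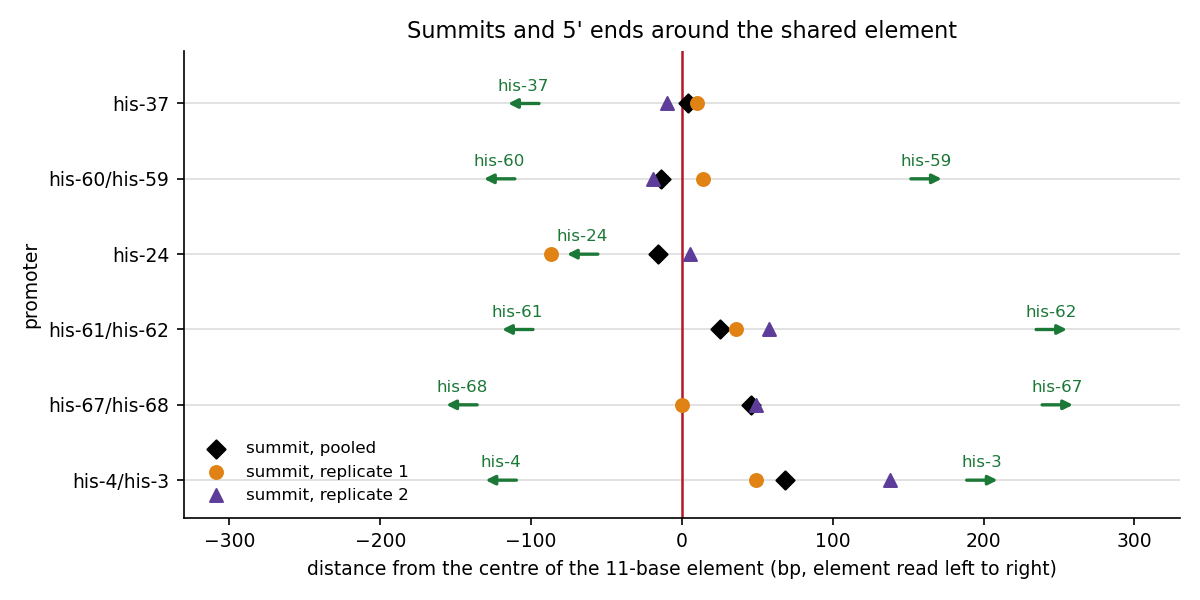
Pooled, replicate 1 and replicate 2 summits by distance (bp) from the middle of the exact shared word, read left to right, at the 6 promoters with the word and a peak; green arrows mark the 5' ends and directions of the histone genes. Pooled summits lie within 68 bp of the word, and in each pair the word lies between the diverging genes.

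Outside histone promoters the exact word had no optimal peak beside it. It occurred at 14 places in histone promoters, 7 of them in unique sequence. All 7 had a pooled summit within 150 bp and 5 an optimal one. These 7 lie in the 6 promoters whose pooled summits chose the word, so a pooled summit nearby was built in. The optimal count is tied to that choice too, since optimal peaks are the strongest pooled peaks. Over all 14 places the counts were also 7 pooled and 5 optimal. At the 56 other places of the genome, unique or not, no optimal summit lay within 150 bp (0%). A pooled summit lay at 11 (19.6%), a replicate 1 summit at 5 (8.93%) and a replicate 2 summit at 9 (16.1%). Of these places, 33 were in unique sequence, with 0 optimal, 7 pooled, 5 replicate 1 and 5 replicate 2 summits. Pooled signals over the 56 places ran from 3.75 to 13.8, below those of the 6 histone promoters. The 6 promoters were chosen by their peaks and the 56 places were not, so these contrasts are descriptions. At 396 other places with 1 differing letter the shares were 0.253% optimal, 11.6% pooled, 7.83% in replicate 1 and 11.9% in replicate 2. The share of genome positions that lay within 150 bp of a summit was 0.533% optimal, 8.76% pooled, 6.05% in replicate 1 and 8.88% in replicate 2.

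Other words were searched in the same 300 bp windows on both strands. The word TATAAA was present at 51 histone genes (70.8%) and at 39.6% of protein-coding genes, and CTCCGCC at 44 (61.1%) and 4.74%. Of 10 unique histone genes without a pooled peak, 8 held TATAAA and 7 held CTCCGCC, so both words were also common where no peak was found. Of 4 words known from earlier results on these lists, AGACGCAG was present at 2 histone genes (2.78%, against 3.77%), his-67 and his-68. AAACGCGC, CGGAACCC and CTGTTTCA were present at none, against 1.6%, 0.275% and 2.47% of protein-coding genes. CTGTTTCA is the core word of 21U-RNA promoters. These matches describe letters only, and no overlap with the shared word was removed.

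The optimal peak of his-72, which has no match to the shared word, is shown for comparison as 101 bases around the summit on the minus strand, on which the gene lies (RefSeq WBcel235, chrIII:12369060-12369160).
his-72 summit: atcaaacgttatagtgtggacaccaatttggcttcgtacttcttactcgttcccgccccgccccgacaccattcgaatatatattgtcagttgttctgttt

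No gene of a small RNA class known as a SNAPc target lay within 300 bp of any of the 10 pooled peaks at histone genes. The 5 optimal ones had no gene of any other class beside them. Unclassified non-coding RNA genes lay beside 3 relaxed peaks: M163.19 at his-24, T10C6.19 at his-4/his-3 and F22B3.19 at his-63/his-64. The summit fell inside M163.19 and F22B3.19, 91 and 65 bp from their 5' ends, and 244 bp downstream of that of T10C6.19. By annotation M163.19 overlaps his-24, T10C6.19 overlaps his-4 and F22B3.19 lies between his-63 and his-64, so these peaks cannot be assigned to the histone or the non-coding RNA gene. Farther out, an optimal peak of signal 114 (rank 184) stood 869 bp from his-42, at the edge of the chromosome II cluster, and 75 bp upstream of the snRNA gene F08G2.10. Optimal peaks 723 bp from his-74 and 863 bp from his-35 lay beside the protein-coding genes ccch-3 (signal 40.1) and mdf-1 (signal 31.2).

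The histone share changed with the number of pooled peaks counted. Among the 250 strongest pooled peaks, none lay beside a histone gene, against 0.411% of protein-coding genes. Among the 500 strongest it was 4.17% (3 genes, his-37, his-67 and his-68) against 1.34%, and among 3000 it was 15.3% against 6.05%. The shares met at 20000 peaks, 22.2% against 21.2%, and the 30000 peaks of the whole list added no histone gene. Among unique genes the histone share stayed above the protein-coding share from 500 peaks (12.5% against 1.44%) to 30000 (58.3% against 28.1%).

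**Figure D5:**
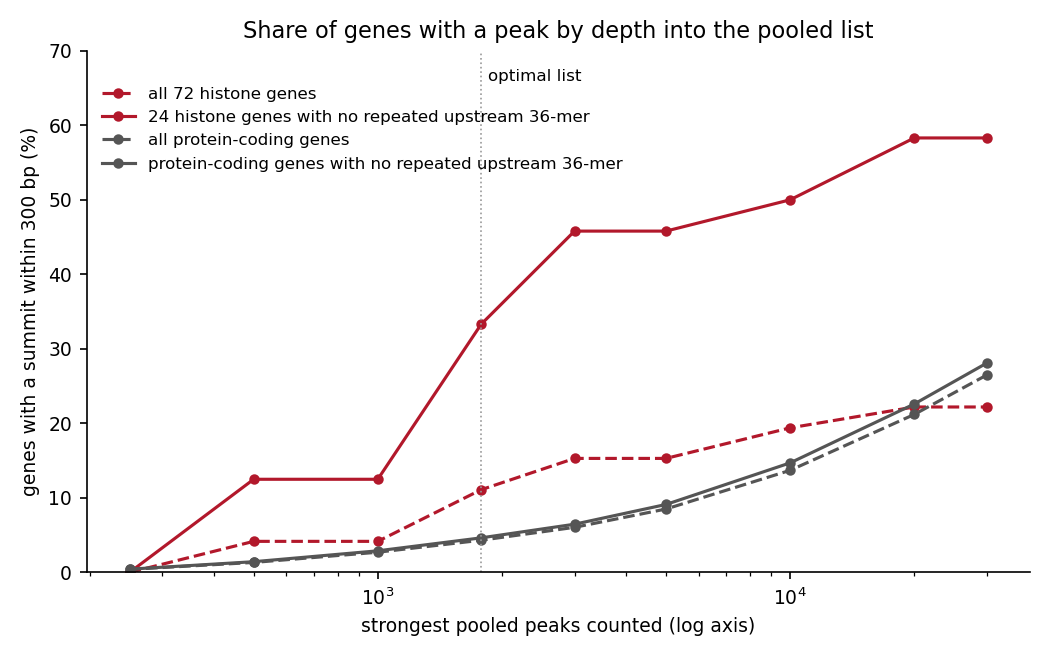
Percent of genes with a summit within 300 bp of the 5' end (y) by the number of strongest pooled peaks counted (x, log axis), for histone genes (red) and protein-coding genes (grey), all (dashed) or with only unique upstream 36-mers (solid). The solid red line lies above both grey lines from 500 peaks on, and the dashed red line meets the dashed grey one near 20000 peaks.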

How the data were processed

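The authors deposited peak lists in narrowPeak columns on ce10 and ce11; the 4 ce11 lists were used and the 4 ce10 lists were not. Each deposited peak has a signal value, a -log10 q value and a summit offset. Per the file headers, relaxed lists were called per replicate and on pooled reads against a control, and the optimal list was derived from them by the irreproducible discovery rate. The aligner, the peak caller, its thresholds and the handling of reads that fit several places are not given in the sources used here. Library fragments were 150 to 350 bp, per the labels. No read depth is known for either library, and no read-based interval can be given.

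All 1781 optimal peaks were the strongest pooled peaks, with the same summits. A gene was given its strongest peak with a summit within 300 bp of its 5' end (Ensembl release 115, WBcel235). That annotation repeats symbols among 36 histone genes, so RefSeq symbols were taken by identical coordinates. Divergent pairs had 5' ends at most 500 bp apart. Words and 36-mers were searched on both strands of the RefSeq WBcel235 genome. Assignment and 36-mer search were checked on simulated data. Python 3.11.15, pandas 2.3.3, numpy 2.4.6 and matplotlib 3.10.9 were used.

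Named genes were all histone genes with an optimal peak, the strongest of each class, the 5 strongest without an optimal peak, his-24 and the H3.3 genes with his-35 and his-73, other genes beside histone peaks, and listed chromatin genes with an optimal peak; further genes were named after their values were seen. The members and lists were chosen with earlier results of these data known. There was 1 group of 2 replicates, so counts are descriptions with no test. Other distances, lists and replicates, and only unique genes, were tried as 10 alternatives.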

Additional observations from a re-analysis of the deposited data

How the results depend on the processing

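The main values were 8 histone genes with an optimal peak, 5 distinct peaks, 3 divergent pairs, and a histone share 2.57 times the protein-coding share. Of 40 values under 10 alternatives, 22 stayed within about 1.5 times the main value, 17 moved further and 1 reversed. The ratio of 1.71 under the stronger 50% of optimal peaks lay at about that limit and was counted as staying. In the pooled relaxed list the counts were 16 genes, 10 peaks and 6 pairs, and the ratio of shares turned to 0.839. Summits within 150 bp left 4 genes and 0 pairs with a summit that near both genes. Requiring the 5' end inside the peak left 3 genes, 3 peaks and 0 pairs. The stronger 50% of optimal peaks left 3 genes, 2 peaks and 1 pair. Optimal peaks matched within 200 bp in the 1781 strongest of each replicate left 5 genes and 3 peaks. Using 1 replicate's own 1781 strongest peaks gave 5 to 7 genes, 3 to 5 peaks, 2 pairs and ratios of 2.21 to 2.35; the lower counts came without replicate 2. Among genes with only unique upstream 36-mers, where a peak shared by divergent genes counts for both, the ratio rose to 7.19. With at least 50% unique 36-mers, a choice added after seeing the data, it was 5.62. Apart from these moved ratios and the reversed one, the ratio stayed between 1.71 and 3.23. No paired analysis was possible because there was only 1 group. Depth is unknown, and 2 replicates allow no error on a share beyond the values of each.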

Other observations

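Genes that act on histones were read in the same lists, from 2 lists of names chosen with earlier results known. Of 13 genes for histone chaperones and the histone mRNA stem-loop binding protein, 3 had an optimal peak, against 4.32% of protein-coding genes, and 9 a pooled peak, against 26.5%. Those with an optimal peak were lin-53, which encodes a histone-binding WD-repeat protein, with a pooled signal of 88.7 (rank 258; 31.4 in replicate 1 and 57.5 in replicate 2), and nap-1, a nucleosome assembly protein gene, with 70.6 (rank 360; 32.4 and 31.0). The third was unc-85, an ASF1 chaperone gene, with 34.5 (rank 1421; 17.6 and 18.0). The pooled summits lay 245 bp (lin-53), 185 bp (nap-1) and 230 bp (unc-85) upstream, and other genes beside these peaks are not given here. The gene cdl-1, whose product binds the stem-loop of histone mRNAs, had a relaxed peak of 24.8 (rank 2824) that was strong in replicate 2 (23.3) and weak in replicate 1 (2.24).

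Of 11 histone variant and linker genes with other symbols, 7 had a pooled peak, against 26.5% of protein-coding genes, and 1 an optimal one, against 4.32%. The latter count rests on a single gene, htz-1, the H2A.Z gene, with a pooled signal of 79.7 (rank 310; 31.6 in replicate 1 and 48.5 in replicate 2) and its summit 295 bp upstream, near the 300 bp limit. Other genes beside the htz-1 peak are not given here. The linker genes hil-1 and hil-6 had no peak in any of the lists.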
